A study of Mus musculus with 24 samples.

Results

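The genes described here are 38 nucleolar factors that build ribosomes, chosen by name as RNA polymerase I components and processing factors. All 38 were found among the 26267 genes of the deposited table, and all 38 passed the filter on low values (10 or more normalized counts in 2 or more libraries). They were measured by RNA-seq of polyadenylated RNA from LSK cells (lineage-negative, Sca-1+, c-Kit+ bone marrow cells that hold the stem and early progenitor cells of the blood), sorted from mice of 4 genotypes given either PBS as the vehicle or poly(I:C), which imitates viral double-stranded RNA. The 24 libraries form 8 groups. PBS was given to WT (4 libraries), FancgKO (4), FancgKO_Mdm4Tg (3) and Mdm4Tg (3) mice, and poly(I:C) to WT (3), FancgKO (3), FancgKO_Mdm4Tg (2) and Mdm4Tg (2) mice. FancgKO stands for loss of Fancg, a gene of the Fanconi anaemia DNA repair complex, and Mdm4Tg for a transgene of Mdm4, an inhibitor of p53. The dose and timing of poly(I:C), the animals' age, sex and strain, the promoter of the transgene and whether animals were pooled are not given in the sources used here. Nothing in the labels says that replicates came from separate animals, so p-values measure the spread between these libraries, which may be technical.

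Ribosomes are assembled in the nucleolus. RNA polymerase I copies the ribosomal DNA into a long precursor RNA. Small nucleolar ribonucleoprotein particles (snoRNPs) modify that precursor, the small-subunit processome cuts and folds its 5′ part, and a separate set of factors assembles the large subunit around the rest. The process takes up much of a growing cell's energy and is driven by Myc. When it is disturbed, free Rpl5 and Rpl11 bind Mdm2 and release p53. Long-term blood stem cells are known for a low rate of protein synthesis, and they leave quiescence under interferon, which poly(I:C) induces.

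The libraries held 807686 to 8229715 reads (median 2583130). The 10 poly(I:C) libraries were the deeper ones (median 4251220.5 reads, 1697596 to 8229715), against a median of 1540399.5 (807686 to 4801746) for the 14 PBS libraries. Replicate numbers 2 and 4 occur only with PBS. Mdm4 stood at 5023 to 7105 normalized counts in the libraries labelled Mdm4Tg or FancgKO_Mdm4Tg and at 750.9 to 1293 in the others. Fancg overlapped between genotypes: the libraries labelled FancgKO or FancgKO_Mdm4Tg held 26.13 to 71.41 normalized counts and the others 41.25 to 78.37, and where these reads lie relative to the deleted part is not given. Of the markers that define the sort, Kit was at 1483 to 2414, while Ly6a, which encodes Sca-1, was at 11.69 to 45.91. Of 6 T-cell genes, Cd3e, Cd3d and Cd3g reached at most 3.267 and Cd4 at most 9.822, while Lck stood at 6.492 to 66.75, and their sum was 21.24 to 78.2 under PBS, against 11.49 to 28.64 under poly(I:C). Of 6 neutrophil genes, Ly6g reached at most 1.138 and S100a8 at most 17.45, while Itgam stood at 11.9 to 39.93, and their sum was 15.3 to 41.5 under PBS, against 14.38 to 49.12 under poly(I:C). Xist differed within groups and between them. In WT its level ranged from 0 to 24.78 with PBS and from 0.3129 to 20207 with poly(I:C). In FancgKO it ranged from 0 to 18007 with PBS and from 0 to 13767 with poly(I:C). Every library with the Mdm4 transgene held at most 3.929. Xist is thus partly tied to treatment and genotype, and its part in the differences below was not tested.

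The nucleolar genes were higher with poly(I:C). Averaged over the 4 genotypes with equal weight, all 38 members were higher with poly(I:C) than with PBS, by a median log2 difference of 0.25, on the scale of log2(normalized count + 1). Over all 12628 genes tested the median was 0.01, and 51.81% were positive. Of the 38 members, 16 (42.11%) passed limma's test across all genes at an adjusted p of 0.05, all of them higher. Over all genes tested, 11.9% were called higher and 11.6% lower, 23.6% in either direction. EdgeR and DESeq2 on recovered reads each called 18 members higher, where 14.4% and 13.9% of all genes were. The changes were small, from 1.20-fold for Polr1a to 1.63-fold for Nhp2 among the called genes. The other 22 members had differences of 0.05 to 0.52 and were not called. No member separated the treatments completely, because at least 1 PBS library always reached into the poly(I:C) range. In bulk samples, fewer cells of a type and less RNA per cell cannot be told apart, so these levels describe the sorted population as a whole.

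**Figure D1:**
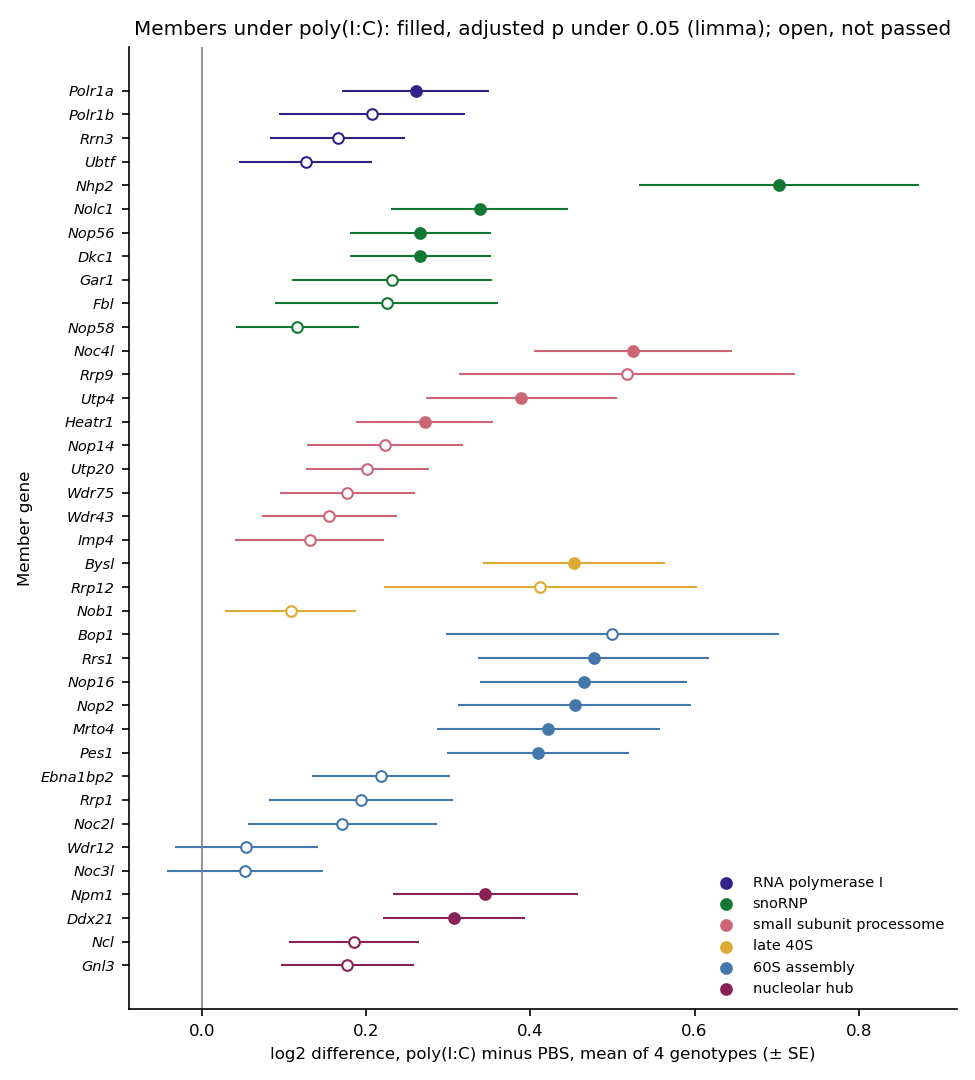
Log2 difference between poly(I:C) and PBS, averaged over 4 genotypes, for the 38 members grouped by role (x axis, log2 of normalized count + 1; bars, standard error from limma). All 38 points lie right of 0, from 0.05 for Noc3l to 0.70 for Nhp2, and the 16 that passed the test are filled.

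The share called differed by role. It was 1 of 4 for RNA polymerase I (median difference 0.19), 4 of 7 for snoRNP proteins (0.27) and 3 of 9 for the small-subunit processome (0.22). It was 1 of 3 for late small-subunit maturation (0.41), 5 of 11 for large-subunit assembly (0.41) and 2 of 4 for the nucleolar proteins Ncl, Npm1, Gnl3 and Ddx21 (0.25). No test compared the roles with each other.

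Within the small-subunit processome, Noc4l, a partner of Nop14 in building the small subunit, had the smallest adjusted p of all members. It lies at chr5:110648418-110653417 on the minus strand of GRCm38. In WT with PBS it stood at 43.87, 90.25, 56.86 and 56.5 normalized counts, and in WT with poly(I:C) at 107.2, 84.29 and 108.9. FancgKO gave 68.92, 87.56, 112.5 and 104.5 with PBS and 99.88, 94.43 and 102.8 with poly(I:C). FancgKO_Mdm4Tg gave 55.69, 69.86 and 52.71 with PBS and 97.05 and 100 with poly(I:C), and Mdm4Tg gave 56.8, 45.18 and 73.58, then 95.06 and 73.6. All 10 poly(I:C) libraries therefore lay above the PBS median of 62.89. The groups did not overlap in FancgKO_Mdm4Tg and, by a margin of 73.58 to 73.6, in Mdm4Tg. They overlapped in WT through 1 PBS library, and overlapped in FancgKO, where the PBS libraries were already high. Averaged over genotypes the log2 difference was 0.53 ± 0.12 (SE; limma adjusted p = 0.00475). Utp4, a scaffold protein of the processome, ranged from 85.01 to 212.3 with PBS (median 121.2) and from 136 to 197.2 with poly(I:C) (median 172.6). It rose by 0.39 ± 0.12 (limma adjusted p = 0.02), and its highest library was a PBS one, FancgKO replicate 7. Heatr1, which also serves polymerase I transcription, rose by 0.27 ± 0.08 (limma adjusted p = 0.0241). The other 6 were not called: Rrp9, a U3 snoRNP protein, differed by 0.52 ± 0.20 (limma adjusted p = 0.0688) and Utp20 by 0.20 ± 0.07 (0.0553), just outside the threshold, and Nop14, Wdr75, Wdr43 and Imp4 by 0.13 to 0.22.

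Among the snoRNP proteins, the H/ACA core protein Nhp2, which pseudouridine-guiding particles and telomerase share, had the largest difference of the 38. It lies at chr11:51619735-51623714 on the plus strand of GRCm38. Its normalized counts were 49.59, 131.8, 71.91 and 46.59 in WT with PBS and 144.3, 76.89 and 120.1 in WT with poly(I:C). In FancgKO they were 56.39, 81.97, 105.2 and 143.7, then 155.8, 100.9 and 111.1. FancgKO_Mdm4Tg moved from 55.69, 71.58 and 73.11 to 118.6 and 129.2, and Mdm4Tg from 47.83, 60.89 and 59.11 to 110.9 and 92.08. The transgenic groups did not overlap between treatments, while the WT and FancgKO groups did, each through high PBS libraries. The averaged difference was 0.70 ± 0.17 (limma adjusted p = 0.00656). Its partner Dkc1, the pseudouridine synthase, rose by 0.27 ± 0.09 (limma adjusted p = 0.0301), whereas Gar1, another H/ACA protein, differed by 0.23 ± 0.12 and was not called (limma adjusted p = 0.169). Nolc1, a chaperone of snoRNPs, ranged from 170 to 311.1 with PBS (median 232.1) and from 211.5 to 372.5 with poly(I:C) (median 313.5), a rise of 0.34 ± 0.11 (limma adjusted p = 0.028). Of the box C/D core, which guides ribose methylation, Nop56 rose by 0.27 ± 0.09 (limma adjusted p = 0.0299). The methyltransferase Fbl was at 85.74 to 200.1 with PBS (median 122.1) and 115.5 to 170.1 with poly(I:C) (median 158.8), a difference of 0.23 ± 0.14 that was not called (limma adjusted p = 0.231). Nop58 differed by 0.12 ± 0.07 (0.269). The proteins of a single particle were thus called unevenly, and their differences from each other were not tested.

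For late small-subunit maturation, Bysl, an assembly factor of the small-subunit precursor at chr17:47599331-47611492, ranged from 39.1 to 71.87 with PBS (median 48.01) and from 58.71 to 86.4 with poly(I:C) (median 67.76). All 10 poly(I:C) libraries were above the PBS median and 4 above the highest PBS library, and the rise was 0.45 ± 0.11 (limma adjusted p = 0.00684). The export factor Rrp12 spread widely, from 30.52 to 135.8 with PBS (median 87.47) and from 70.55 to 145.1 with poly(I:C) (median 108.4). Its difference of 0.41 ± 0.19 was not called (limma adjusted p = 0.119), nor was that of Nob1, the nuclease that makes the final cut of the small-subunit RNA (0.11 ± 0.08).

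In large-subunit assembly, Nop16 (chr13:54584185-54590090) was higher in every one of 9 pairs of libraries that share genotype and replicate number. Its normalized counts were 46.99 to 90.16 with PBS (median 60.7) and 63.59 to 99.88 with poly(I:C) (median 87.89), with 5 of 10 poly(I:C) libraries above all PBS libraries. The averaged rise was 0.47 ± 0.13 (limma adjusted p = 0.0122). Pes1, a member of the trimer with Bop1 and Wdr12 that processes the large-subunit RNA, was at 100.8 to 248.3 with PBS (median 151.5) and 180.4 to 235.7 with poly(I:C) (median 208.8). It rose by 0.41 ± 0.11 (limma adjusted p = 0.0124), with all poly(I:C) libraries above the PBS median and none above the PBS maximum. The other 2 proteins of that trimer were not called: Bop1 differed by 0.50 ± 0.20 (limma adjusted p = 0.0752) and Wdr12 by 0.05 ± 0.09 (0.677). Rrs1, which brings the 5S ribonucleoprotein to the growing subunit, rose by 0.48 ± 0.14 (limma adjusted p = 0.0195), the RNA methyltransferase Nop2 by 0.45 ± 0.14 (0.0261) and Mrto4, which holds the place of the ribosomal stalk, by 0.42 ± 0.14 (0.0289). Noc3l had the smallest difference of the 38, at 0.05 ± 0.10, and Noc2l, Rrp1 and Ebna1bp2 lay between 0.17 and 0.22, uncalled.

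For RNA polymerase I, the largest subunit Polr1a ranged from 195.5 to 312.6 with PBS (median 240.2) and from 245.7 to 347.1 with poly(I:C) (median 282.8). It rose by 0.26 ± 0.09 (limma adjusted p = 0.0383), the weakest call among the 16. Rrn3, the initiation factor that ties polymerase I to growth signals, was at 204.4 to 296.1 with PBS (median 256.1) and 239.9 to 338.7 with poly(I:C) (median 264.2), a difference of 0.17 ± 0.08 that was not called (limma adjusted p = 0.144). The second subunit Polr1b and the upstream binding factor Ubtf, which keeps the ribosomal DNA open, differed by 0.21 ± 0.11 and 0.13 ± 0.08 and were not called either.

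Of the nucleolar proteins Ncl, Npm1, Gnl3 and Ddx21, the helicase Ddx21 (chr10:62580251-62602281) was higher with poly(I:C) in all 9 matched pairs. It ranged from 585.3 to 860.7 with PBS (median 682.4) and from 686.1 to 1059 with poly(I:C) (median 886.3), a rise of 0.31 ± 0.09 (limma adjusted p = 0.0154). The chaperone Npm1 ranged from 1186 to 1968 with PBS (median 1389) and from 1299 to 2412 with poly(I:C) (median 1896), a rise of 0.35 ± 0.11 (limma adjusted p = 0.0312). Nucleolin (Ncl) ranged from 2679 to 3742 with PBS (median 3278) and from 3010 to 4384 with poly(I:C) (median 3707). Its difference of 0.19 ± 0.08 missed the threshold (limma adjusted p = 0.092), as did that of nucleostemin, Gnl3 (0.18 ± 0.08; 0.114). These 4 were not the ones that moved most. Per kilobase of annotated exon, merged over all transcripts of a gene, the PBS medians were 521.3 for Npm1, 321.7 for Ncl, 131.8 for Ddx21 and 78.52 for Gnl3. The merged length was 10188 bases for Ncl and 2665 for Npm1, so their order depends on it, as the unscaled median was higher for Ncl. On the same scale Bysl was at 12.46 and Noc4l at 24.23, and both had larger log2 differences. Imp4, at 20.04, and Wdr12, at 28.22, had smaller ones (0.13 and 0.05) and were not called.

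**Figure D2:**
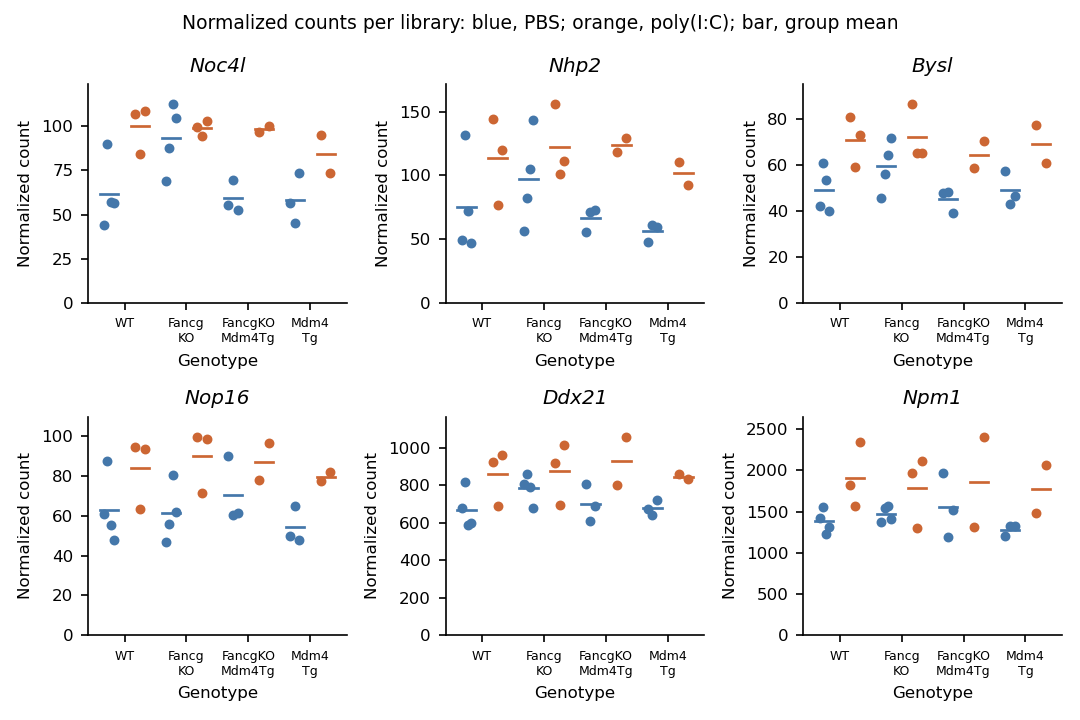
Normalized counts (y axes, from 0) of named members in each of the 24 libraries, by genotype and treatment; each point is a library. The poly(I:C) libraries lie toward the top of each panel, as for Nop16 (63.59 to 99.88 against 46.99 to 90.16), and overlap the PBS libraries in every panel.

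Promoter sequences are shown because all 38 averaged differences had the same sign and Myc, which binds the E-box CACGTG, is the known driver of the set. RefSeq windows on GRCm38.p6, from 250 bases before to 50 after a gene's start, were found for 33 of the 38 members. CACGTG, which reads the same on both strands, occurred in 7 of 33 (21.2%), namely Imp4, Nop2, Pes1, Rrn3, Utp20, Utp4 and Wdr43, against 8.09% of 27025 genes. These 27025 are all genes with such a window, whether or not detected in LSK cells, and any matching window of a gene counted. Shares among only the genes tested here were not counted. The ETS-type word CCGGAAGT, searched on both strands, occurred in 7 (21.2%) against 4.31%, and the E-box variant CACGCG in 9 (27.3%) against 10.5%. CGCATGCG occurred in 2 (6.06%) against 2.07% and ATGCAAAT in 1 (3.03%) against 1.97%. The longer NRF1 palindrome, which contains CGCATGCG, and the CGCG palindrome of ZBTB33 (Kaiso) were in no member window, against 1.07% and 0.525% of all genes. Among the 16 called genes were 3 of the 7 with CACGTG, 3 of the 7 with CCGGAAGT and 6 of the 9 with CACGCG, beside 42.11% of all members. The 3 called genes with CACGTG are printed here with Nhp2, the gene with the largest difference, which has no CACGTG in its window, each from 120 bases before to 30 after the start on the plus strand of GRCm38.p6, with CACGTG in capitals. They lie at chr6:125131763-125131912 (Nop2), chr11:3963855-3964004 (Pes1), chr8:106893520-106893669 (Utp4) and chr11:51619653-51619802 (Nhp2).
Nop2: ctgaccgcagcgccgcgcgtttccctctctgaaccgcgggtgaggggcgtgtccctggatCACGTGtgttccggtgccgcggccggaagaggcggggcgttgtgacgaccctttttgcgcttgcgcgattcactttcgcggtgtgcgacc
Pes1: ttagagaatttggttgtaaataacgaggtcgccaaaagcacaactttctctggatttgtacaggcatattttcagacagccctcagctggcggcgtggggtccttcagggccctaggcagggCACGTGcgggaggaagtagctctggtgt
Utp4: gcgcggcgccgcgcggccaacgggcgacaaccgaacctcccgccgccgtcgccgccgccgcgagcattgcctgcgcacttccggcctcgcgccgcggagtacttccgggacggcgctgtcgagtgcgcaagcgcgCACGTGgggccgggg
Nhp2: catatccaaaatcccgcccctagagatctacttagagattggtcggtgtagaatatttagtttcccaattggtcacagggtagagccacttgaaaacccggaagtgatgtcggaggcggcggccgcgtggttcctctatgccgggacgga
The E-box begins 60 bases before the start in Nop2, at base 3 after it in Pes1 and at base 16 in Utp4. A match of letters is a description of the sequence and does not show binding.

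Some other genes of ribosome assembly were also called higher and not lower, beside 11.9% of all genes called higher and 11.6% lower. Higher and lower in this paragraph mean called by limma at an adjusted p of 0.05. Of 20 other RNA polymerase I genes tested, 3 were called higher and 0 lower (median difference 0.19), led by the shared subunit Polr1d (0.51 ± 0.11; limma adjusted p = 0.00337). Of 48 other small-subunit factors, 10 were higher and 0 lower (median 0.20), among them Nop9 (0.49 ± 0.10; 0.00224) and Pno1 (0.59 ± 0.17; 0.0148), a partner of Nob1. Of 50 other large-subunit factors, 9 were higher and 0 lower (median 0.21), among them Nol9 (0.39 ± 0.09; 0.00354), the polynucleotide kinase of precursor cleavage, and Npm3 (0.63 ± 0.15; 0.00586), a relative of Npm1. The RNA exosome, which trims precursor ends, had 4 of 15 genes higher and 0 lower (median 0.19), including Exosc1 (0.38 ± 0.09; limma adjusted p = 0.00559). Of 12 snoRNA host genes 2 were higher, Snhg1 (0.25 ± 0.08) and Snhg3 (0.74 ± 0.26). Shares called in these lists can be read against the 11.9% of all genes called higher, and 3 of 20 and 2 of 12 are near it.

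The Myc network did not move in a single direction. Myc rose, from a PBS range of 497.8 to 950.6 normalized counts (median 675.7) to 707 to 1002 with poly(I:C) (median 860.1), by 0.34 ± 0.09 (limma adjusted p = 0.0132). Mycn, its paralogue, fell by 0.63 on the log2 scale (SE 0.11; limma adjusted p = 0.000984), from 65.73 to 139.2 with PBS to 50.44 to 79.22 with poly(I:C). Of the 10 network genes tested, 2 were called higher (Myc and Mlx) and 2 lower (Mycn and Mxd4). Among 10 genes linking ribosome assembly to p53, Rpl11 rose by 0.48 ± 0.12 (limma adjusted p = 0.00777), Rrs1 rose as given above, and Mdm4 fell by 0.22 (SE 0.08; 0.0425). The Mdm4 value averages over the transgenic genotypes too, and transcripts of the transgene and of the endogenous gene are not told apart in it.

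Markers of other cell types and of the cell cycle differed in the same contrast. All 9 granulocyte-monocyte progenitor genes rose (median difference 2.03), and their summed level ran from 1465 to 14000 normalized counts with PBS and from 5849 to 23210 with poly(I:C). Of 10 stem and progenitor markers, 0 were called higher and 9 lower (median -0.76), Ly6a being the uncalled one at -0.20 ± 0.22. Their sum ran from 5277 to 9099 with PBS and from 3856 to 6430 with poly(I:C). Erythroid genes were called higher for 5 of 6 tested. Lymphoid progenitor genes were called lower for 3 of 6, with 0 of the 6 positive. Of 20 S-phase genes 11 were called higher and 0 lower (median 0.26), with all 20 positive. Of 20 G2 and M genes 11 were called higher and 0 lower (median 0.27), with 18 positive. Over all genes tested, 11.9% were called higher and 11.6% lower. The part of these shifts in the rise of the nucleolar genes was not tested.

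Depth moved with treatment too. With log2 depth as a covariate, chosen after seeing the data, the members' median difference was 0.27 and 37 of 38 were positive, but only Nop2 was still called by limma (adjusted p = 0.0471), with 610 genes called overall. With reads thinned to the smallest library, also chosen after seeing the data, 7 members were called and the median was 0.22. In the matched pair of FancgKO_Mdm4Tg replicate 7 the poly(I:C) library was the shallower, at 2056492 against 2865682 reads, and 37 of 38 members were higher in it. In the other matched pairs the poly(I:C) library was the deeper. For FancgKO replicate 7, at 2300578 against 807686 reads, 12 of 38 members were higher. Depth and treatment cannot be told apart here, and the part of depth in these differences was not tested.

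**Figure D3:**
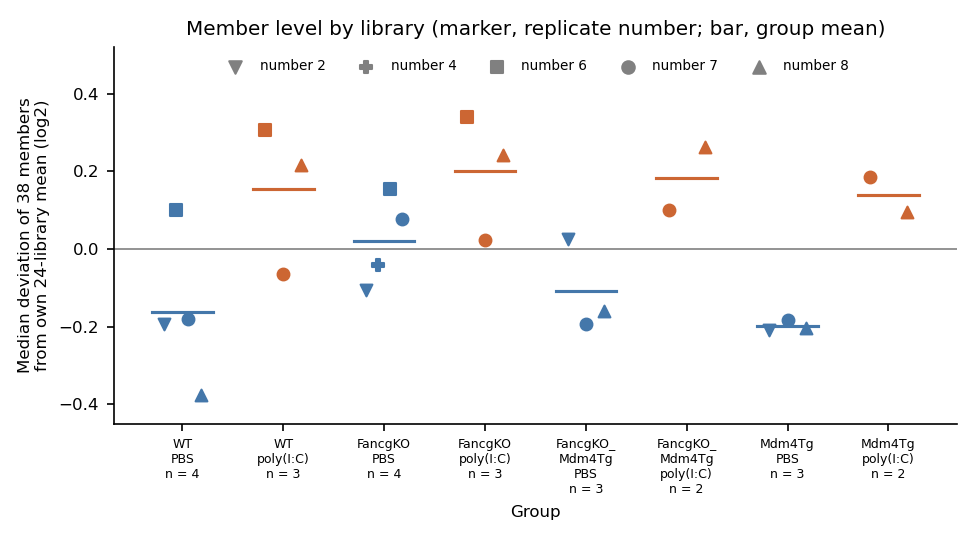
Median over the 38 members of each gene's deviation from its mean over all libraries (y axis, log2), for each of the 24 libraries by group. The 14 PBS libraries run from -0.38 to 0.15 and the 10 poly(I:C) libraries from -0.06 to 0.34, with overlap.

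Single libraries show how even the shift was. The members' median deviation from their own means over all libraries ran from -0.38 to 0.15 with PBS (median -0.17) and from -0.06 to 0.34 with poly(I:C) (median 0.20). The lowest library was WT with PBS replicate 8, where 2 of 38 members were above their mean. The highest were FancgKO with poly(I:C) replicate 6 and WT with poly(I:C) replicate 6, each with 36 of 38. The summed level of the 38 was 11607 to 14842 normalized counts in the PBS libraries and 13012 to 17129 in the poly(I:C) libraries.

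Pairs of libraries exist that share genotype and replicate number. In the 3 WT pairs 33, 24 and 38 of 38 members were higher with poly(I:C), for replicates 6, 7 and 8, with median differences of 0.16, 0.12 and 0.52. FancgKO replicate 6 gave 31 of 38 (0.15), and FancgKO replicate 7 only 12 of 38 (-0.11), the pair that went the other way. FancgKO_Mdm4Tg replicates 7 and 8 gave 37 and 33 of 38 (0.28 and 0.39), and Mdm4Tg replicates 7 and 8 gave 34 in each (0.35 and 0.22). The PBS library of the exceptional pair is the shallowest of all, at 807686 reads. It held 248.3 normalized counts of Pes1, 143.7 of Nhp2 and 212.3 of Utp4, the highest PBS value of each. It also held 16.33 of Rrp9 and 124.1 of Imp4, the lowest PBS value of each.

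**Figure D4:**
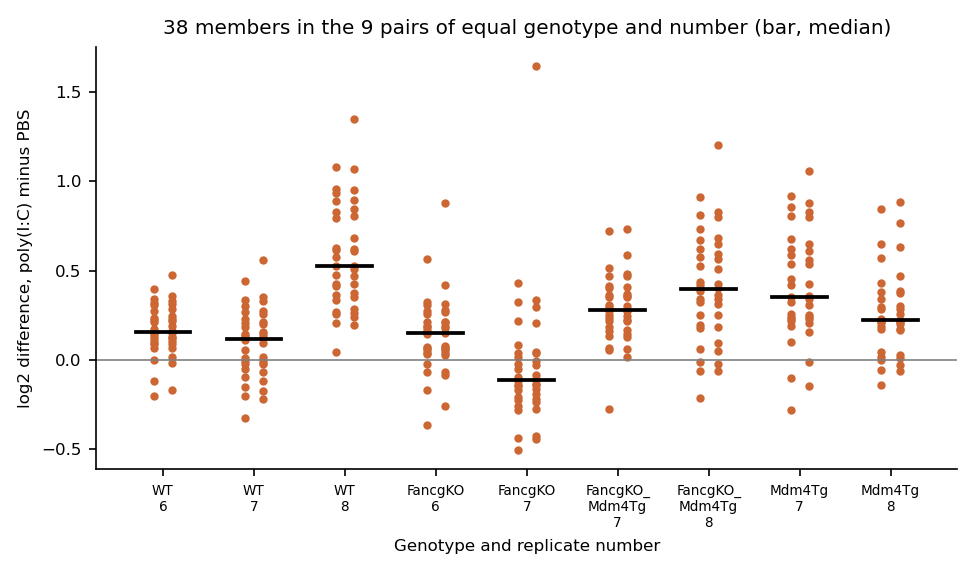
Log2 difference of each of the 38 members (points) between the poly(I:C) and the PBS library of the same genotype and replicate number, for 9 pairs; the bar is the members' median. Medians lie above 0 in 8 pairs, up to 0.52 in WT replicate 8, and at -0.11 in FancgKO replicate 7.

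Within single genotypes the direction was mostly the same but no member was called. In WT 37 of 38 members were positive (median difference 0.28), in FancgKO 36 (0.13), in FancgKO_Mdm4Tg 36 (0.29) and in Mdm4Tg 35 (0.35). Limma called 0 members in each, while 7, 1, 5 and 9 members had p under 0.05 before adjustment, and 0 were called by edgeR or by DESeq2 on the recovered reads. The background was low as well: limma called 0.0158% of all genes in WT and 0 in the other 3 genotypes. Noc4l differed by 0.73 ± 0.22 in WT, 0.11 ± 0.22 in FancgKO, 0.73 ± 0.26 in FancgKO_Mdm4Tg and 0.54 ± 0.26 in Mdm4Tg. The FancgKO value is the smallest of the 4, but the test that the poly(I:C) response differs between genotypes called 0 members and 0 genes (limma, smallest adjusted p = 1; edgeR and DESeq2 also 0), with 0 members and 47 genes at an unadjusted p under 0.05. A difference in response between genotypes was therefore not detectable with 2 to 4 libraries a group.

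In WT the replicate numbers were taken as pairs, which the labels do not state. The fit with the number as a block called 2 members, Ddx21 (0.37 ± 0.11; limma adjusted p = 0.0373) and Noc4l (0.63 ± 0.19; limma adjusted p = 0.0424), where 3.25% of all genes were called higher. Ddx21 stood at 675.2, 818.5, 585.3 and 598.2 normalized counts in WT with PBS (replicates 2, 6, 7 and 8) and at 923.5, 686.1 and 961.8 with poly(I:C) (6, 7 and 8), higher in each pair. These 2 calls were lost, leaving 0, when WT PBS replicate 2, 7 or 8 or WT poly(I:C) replicate 6 or 8 was left out of the block fit, and 1 was left without WT poly(I:C) replicate 7. Without the block, leaving out WT PBS replicate 6 gave 2 calls in place of 0.

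No member was called between FancgKO and WT. With PBS, 35 of 38 were higher in FancgKO than in WT, with a median difference of 0.13 against -0.01 for all genes, and limma called 0 members and 0 genes (edgeR and DESeq2 0 members). Standard errors ran from 0.13 to 0.34. Unadjusted p was under 0.05 for 3 members: Noc4l (0.61 ± 0.20), Rrp12 (0.67 ± 0.32) and Utp20 (0.28 ± 0.13), each with an adjusted p of 0.999 in limma. Rrp12 stood at 30.52, 108, 93.65 and 51.54 normalized counts in WT and at 84.59, 93.14, 135.8 and 98.01 in FancgKO, so the groups overlapped. These libraries were taken as paired by number, and with the block the smallest adjusted p was 0.23 (limma). With poly(I:C), 22 of 38 members were higher in FancgKO (median 0.02), 0 called and 0 at an unadjusted p under 0.05. The median was -0.10 without WT poly(I:C) replicate 7 and -0.06 without FancgKO poly(I:C) replicate 6.

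Adding the Mdm4 transgene to Fancg loss gave the opposite sign with PBS. Only 9 of 38 members were higher in FancgKO_Mdm4Tg than in FancgKO (median -0.14), with 0 members called by limma (0.00792% of all genes), edgeR or DESeq2, and 2 at an unadjusted p under 0.05: Noc4l (-0.63 ± 0.22) and Pes1 (-0.45 ± 0.20; limma adjusted p = 0.931 for each). This comparison and that of FancgKO with WT use the same 4 FancgKO PBS libraries, so the opposite signs are not independent. Noc4l differed by -0.02 ± 0.22 between FancgKO_Mdm4Tg and WT, and the members' median there was 0.04, with 26 of 38 positive. That median was -0.02 without WT PBS replicate 8 or without FancgKO_Mdm4Tg PBS replicate 2, and 0.11 with the replicate number as a block. With poly(I:C), 19 of 38 members were higher in FancgKO_Mdm4Tg than in FancgKO (median -0.0014), a median that was 0.08 without FancgKO replicate 6 or FancgKO_Mdm4Tg replicate 7. Mdm4Tg against WT with PBS had 13 of 38 positive (median -0.08). These libraries were taken as paired by number, and with the block 19 were positive (median -0.00049), while without WT PBS replicate 6 the median was 0.03. Limma called 0 members in each of these comparisons, where it called 0.00792% of all genes.

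Averaged over the other factors, Fancg loss gave 36 of 38 members higher by a median of 0.08, and the transgene 12 of 38 higher with a median of -0.04. When the fit was blocked on replicate number, the transgene's median turned to 0.03, with 24 of 38 higher. Limma called 0 members in either (0.0158% and 0.00792% of all genes) and none had an unadjusted p under 0.05. The standard errors of the averaged fits were 0.08 to 0.21, the same as for poly(I:C), where the median was 0.25.

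**Figure D5:**
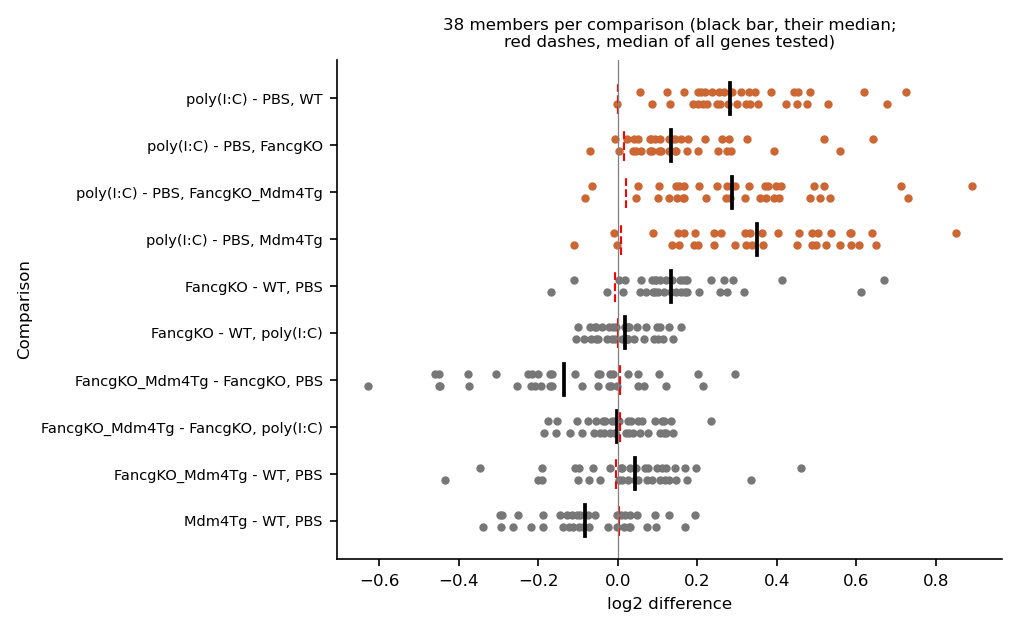
Log2 difference of the 38 members (points) in each comparison, with their median (black) and the median of all genes tested (red). The poly(I:C) comparisons have medians of 0.13 to 0.35, and the genotype comparisons lie between -0.14 and 0.13.

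Some members share exon bases with a neighbouring gene, and whether counting used the strand is not given, so their reads cannot be told apart. Bysl shares 361 bases with Ccnd3, Noc2l 598 with Samd11, Polr1a 185 with the antisense gene Gm26628, Heatr1 155 with Lgals8, Wdr12 61 with Carf and Bop1 50 with Mroh1, each on the opposite strand. Nop56 and Ncl hold small RNA genes in their exons.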

How the data were processed

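Polyadenylated RNA of sorted LSK cells was made into libraries with the CATS RNA-seq kit, per the labels. The table the authors deposited gives each gene a signal, described as normalized counts, in each library. Per the submitters' processing notes, STAR and mm10 were used. The counter, the normalization and strand handling are not given in the sources used here. Dividing each column by its lowest value above 0 returned whole reads for 100% of values (tolerance 1e-06). Symbols came from the file for 16217 genes and from the GRCm38 annotation for 10006.

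Log2(normalized count + 1) of 12628 genes was fitted with 8 group means and a mean-variance trend in limma 3.58.1 (R 4.3.3), Benjamini-Hochberg at 0.05. EdgeR 4.0.16 and DESeq2 1.42.0 tested the recovered reads. They called 18 members each for poly(I:C), against 16. Members and lists were chosen with earlier results of these data known. Members given with library values are the 2 with the smallest p in each role, and Ncl, Npm1 and Fbl. Of other pathway lists up to 3 genes with the smallest p are named. After removal of group means, 61 pairs of same-numbered libraries had a median correlation of 0.343 (other pairs -0.163). Deviations within a group cancel, so the other pairs are tied to the same-numbered ones and are no independent contrast. The numbers were taken as pairs where 3 or more same-numbered pairs each correlated above 0.1. That held for poly(I:C) in WT (0.231 to 0.448) and FancgKO against WT (PBS 0.218 to 0.528, poly(I:C) 0.392 to 0.617). It also held for FancgKO_Mdm4Tg (0.248 to 0.389) and Mdm4Tg (0.293 to 0.378) against WT. The labels give only a number, which follows the title suffix, so the pairing is an assumption. The fits were also run on simulated counts without correlation by replicate number. The planted differences were larger than those of the members, so that run does not cover differences of the size reported here. Python 3.11.15, numpy 2.4.6, pandas 2.3.3 and matplotlib 3.10.9 made tables and figures.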

Additional observations from a re-analysis of the deposited data

How the results depend on the processing

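For poly(I:C) averaged over genotypes, the members' median difference was 0.19 to 0.29 under every alternative run, but the count of called members, 16, depended on the fit. It was 10 without a filter on low values, 26 with the title suffix as a covariate, 25 with array weights, 23 with the replicate block, 1 with depth as a covariate, 26 with the share of ribosomal RNA rows as a covariate, 7 with reads thinned to the smallest library and 0 with replicate numbers 7 and 8 only (limma, with 16 members at an unadjusted p under 0.05). The last 4 settings were chosen after seeing the data. Calls over all genes moved between fits as well: 16% were called higher with the replicate block, against 11.9% in the main fit. For most of the other settings the share over all genes is not set beside the count. A higher or lower count there is therefore not read as a result about the members. Leaving out a library in turn gave 8 to 19 calls, 8 without FancgKO poly(I:C) replicate 6 or FancgKO_Mdm4Tg poly(I:C) replicate 8 and 10 without Mdm4Tg poly(I:C) replicate 7. Over all genes, 1554 to 3584 were called in those fits, in either direction. With the block, leaving out a library gave 13 to 26 member calls, where 2644 to 4472 of all genes were called. Noc4l, Nhp2, Bysl, Pes1 and Nop16 were called whichever library was left out of the fit without the block. With the block, Pes1 was called in 16 of 24 such fits and the other 4 in all. All 16 calls were kept by edgeR and DESeq2. They were also kept by limma with Xist as a covariate, where Ncl and Utp20 were called in addition. Signs turned for Noc2l (-0.001 with numbers 7 and 8 only) and Noc3l (-0.006 with quantile scaling, -0.064 with depth as a covariate). In WT alone 9 members were called with array weights, 2 with the block (3.25% of all genes called higher) and 0 to 2 with a library left out. The share of all genes is not set beside the 9, which is not read as a result about the members. With a library left out of the WT fit without the block, 0 to 520 of all genes were called. In Mdm4Tg the block gave 1 call, Nop56 (limma adjusted p = 0.0379; 288 of 12628 genes called higher). There only 2 same-numbered pairs exist (correlations 0.356 and 0.427), too few for the rule used to take numbers as pairs. The genotype comparisons kept 0 called members under all alternatives run, while the signs of their small medians were less stable, as given with them. The cause of these changes was not tested. Precision is limited by 2 to 4 libraries a group and by the shallow PBS libraries.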

Other observations

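Libraries of replicate number 7 and of number 8 did not overlap for many genes within each treatment, some nucleolar genes among them. Each genotype gave 1 library of each number with poly(I:C), 4 against 4. There, 11 of 38 members were higher in all 4 libraries numbered 8 than in any numbered 7, and 5 were lower, against 21.4% and 19.9% of all 12628 genes, so the members' shares are near those of all genes. Npm1 stood at 2070 to 2412 normalized counts in number 8 and 1299 to 1566 in number 7, and Ncl at 3803 to 4384 and 3010 to 3512. Fbl went the other way, at 115.5 to 124.1 in number 8 and 156.9 to 170.1 in number 7, as did Polr1b (178.6 to 219.8 and 231.2 to 320.2). With PBS, 1 member was higher in the 3 libraries numbered 8 (Nop58) and 6 were lower than in the 4 numbered 7, against 15.0% and 14.3% of all genes. The titles of number 7 end in d and those of number 8 in d_2, and what the suffix stands for is not given in the sources used here. These groupings were chosen after seeing the data, and no test was made.

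Of neighbouring rows on chromosome 17, CT010467.1, annotated as rRNA, fell by 2.18 on the log2 scale with poly(I:C) (SE 0.37; limma adjusted p = 0.000713), while Gm26917, with 76340 to 333600 normalized counts a library, differed by 0.31 ± 0.29 (0.453).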
